A study of Mus musculus with 10 samples.

Results

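RNA sequencing of mouse quadriceps in 10 libraries was used to describe 10 genes of the VEGF and Tie receptor systems. The genes were taken by name, as the receptors Flt1, Kdr and Flt4, the co-receptor Nrp1, the receptors Tek and Tie1, and the ligands Vegfa, Vegfb, Vegfc and Angpt1. They are 10 of the 24063 gene symbols in the deposited tables. The series asks how a metabolite intervention alters gene expression in muscle. There were 5 libraries from animals given the supplement that the labels call 1C-MIM in their drinking water for 1 to 3 months, and 5 libraries from Control animals given water without it. The mice of both groups were wild-type C57BL animals and 17 to 20 months old, so no young animals enter the comparison. Every mouse, Control animals included, had been injured in a tibialis anterior muscle, and the RNA came from uninjured quadriceps. What 1C-MIM contains is not stated in the labels, and neither sex, cage nor collection time is labelled. Each library is a separate animal per the deposited names, and n below counts animals.

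Vascular endothelial growth factors are secreted ligands of receptor tyrosine kinases found mainly on endothelial cells. Vegfa signals through Kdr to drive endothelial survival and sprouting, and it also binds Flt1, which has high affinity but weak kinase activity and can hold ligand away from Kdr. Vegfb binds Flt1, while Vegfc binds Flt4, the receptor of lymphatic and some blood capillary endothelium. Nrp1 is a co-receptor that presents Vegfa to Kdr. In the Tie system, Angpt1 activates Tek (also called Tie2) and stabilises vessels, and Tie1 is a partner of Tek with no established ligand of its own. In skeletal muscle, the fibres themselves are a main source of Vegfa, and the receptors mark the capillaries between them.

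The sequences just upstream of the receptor genes are shown because these genes are mainly active in endothelial cells and because the Flt1, Kdr, Flt4 and Tek transcripts were all called higher below. Each is the 250 bases before the annotated gene start, 5′ to 3′ on the gene's strand, from RefSeq with coordinates of build GRCm38.p6. The authors' counts name build GRCm39. Capitals mark GGAAG, or CTTCC where it lies on the other strand, a core form of sites bound by ETS factors, a family that includes endothelial regulators such as Erg. Only this exact motif was searched, so other forms, such as the shorter GGAA, are not marked or counted.
Flt1 (chr5:147726012-147726261, minus strand): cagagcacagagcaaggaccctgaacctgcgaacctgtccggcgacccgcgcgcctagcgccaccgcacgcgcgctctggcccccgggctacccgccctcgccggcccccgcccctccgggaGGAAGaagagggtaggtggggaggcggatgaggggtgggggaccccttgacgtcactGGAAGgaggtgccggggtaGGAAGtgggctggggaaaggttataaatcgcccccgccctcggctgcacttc
Kdr (chr5:75978456-75978705, minus strand): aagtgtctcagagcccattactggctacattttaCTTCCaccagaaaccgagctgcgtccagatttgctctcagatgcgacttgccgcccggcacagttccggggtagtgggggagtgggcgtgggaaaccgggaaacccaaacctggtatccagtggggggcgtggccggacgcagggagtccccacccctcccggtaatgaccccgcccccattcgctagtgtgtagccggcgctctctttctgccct
Flt4 (chr11:49609429-49609678, plus strand): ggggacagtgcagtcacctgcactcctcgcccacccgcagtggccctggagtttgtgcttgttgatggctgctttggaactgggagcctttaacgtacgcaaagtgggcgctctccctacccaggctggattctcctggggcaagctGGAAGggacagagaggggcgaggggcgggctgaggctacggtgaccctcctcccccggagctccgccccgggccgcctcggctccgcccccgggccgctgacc
Tek (chr4:94739039-94739288, plus strand): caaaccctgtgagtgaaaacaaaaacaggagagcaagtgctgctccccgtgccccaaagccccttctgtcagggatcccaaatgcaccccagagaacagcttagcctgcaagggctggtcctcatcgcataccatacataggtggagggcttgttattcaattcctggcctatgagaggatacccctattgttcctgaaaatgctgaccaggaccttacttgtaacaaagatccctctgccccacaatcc
Tie1 (chr4:118489850-118490099, minus strand): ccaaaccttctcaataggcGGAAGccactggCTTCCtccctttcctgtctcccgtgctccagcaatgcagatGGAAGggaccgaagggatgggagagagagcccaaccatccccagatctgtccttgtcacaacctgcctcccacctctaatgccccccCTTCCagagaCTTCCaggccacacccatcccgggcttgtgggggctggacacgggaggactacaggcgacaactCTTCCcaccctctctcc
A window was found for 9 of the 10 genes, 10 windows in all since Vegfa has 2 starts, and Angpt1 had none. GGAAG occurred on either strand in 6 of these 9 genes. It was found in 3 of the 4 receptor genes called higher, with 3 matches for Flt1, 1 for Kdr, 1 for Flt4 and 0 for Tek, and there were 6 matches for Tie1. Over 32851 windows of the same length, 64.1% held GGAAG, so its presence here is near the share of promoters at large. The hypoxia response core ACGTG, read on both strands (CACGT on the other), occurred in 1 of the 9 genes, Vegfa, and in 16.6% of all windows. The match lay before the downstream of the 2 Vegfa starts (chr17:46025164-46025413, minus strand). That window lies inside the stretch transcribed from the upstream start, so it is not sequence before the gene. The window of the upstream Vegfa start (chr17:46032378-46032627) held no match. The motifs did not overlap in any window, and a match is a description of letters only.

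Each gene was followed through 1 transcript, and values are counts per 1000000 (CPM) scaled by TMM, a factor that evens out composition between libraries. With 1 transcript kept per symbol, library totals were 28521254 to 31771296 counts, and all 10 genes passed the filter on low counts. Differences are log2 fold changes of 1C-MIM over Control from edgeR's quasi-likelihood F test, with Benjamini-Hochberg adjustment over 13880 tested genes. Of the 10 genes, 4 were higher in 1C-MIM at an adjusted p under 0.05, 0 were lower and 6 were not called. Of all tested genes, 9.78% were called higher and 11.8% lower. Of the 4, Flt1 alone was also called when a trend with transcript length was removed and when libraries were scaled to endothelial markers. In bulk muscle, more endothelial cells and more receptor RNA per endothelial cell cannot be told apart. At an unadjusted p under 0.05, edgeR gave 7 of the 10 higher and 0 lower, beside 17.9% higher and 19.6% lower over all tested genes. DESeq2 and limma-voom each called 4 of the 10 higher and 0 lower. The shares over all tested genes were 12.9% higher and 13% lower with DESeq2, and 10.1% higher and 11.7% lower with limma-voom. The median log2 fold change was 0.30 over the 10 genes, with 9 of 10 positive, beside 0.00 over all tested genes, of which 50.1% were positive. Since the 10 genes were chosen with earlier results of these data known, these comparisons with all tested genes are descriptions only.

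**Figure D1:**
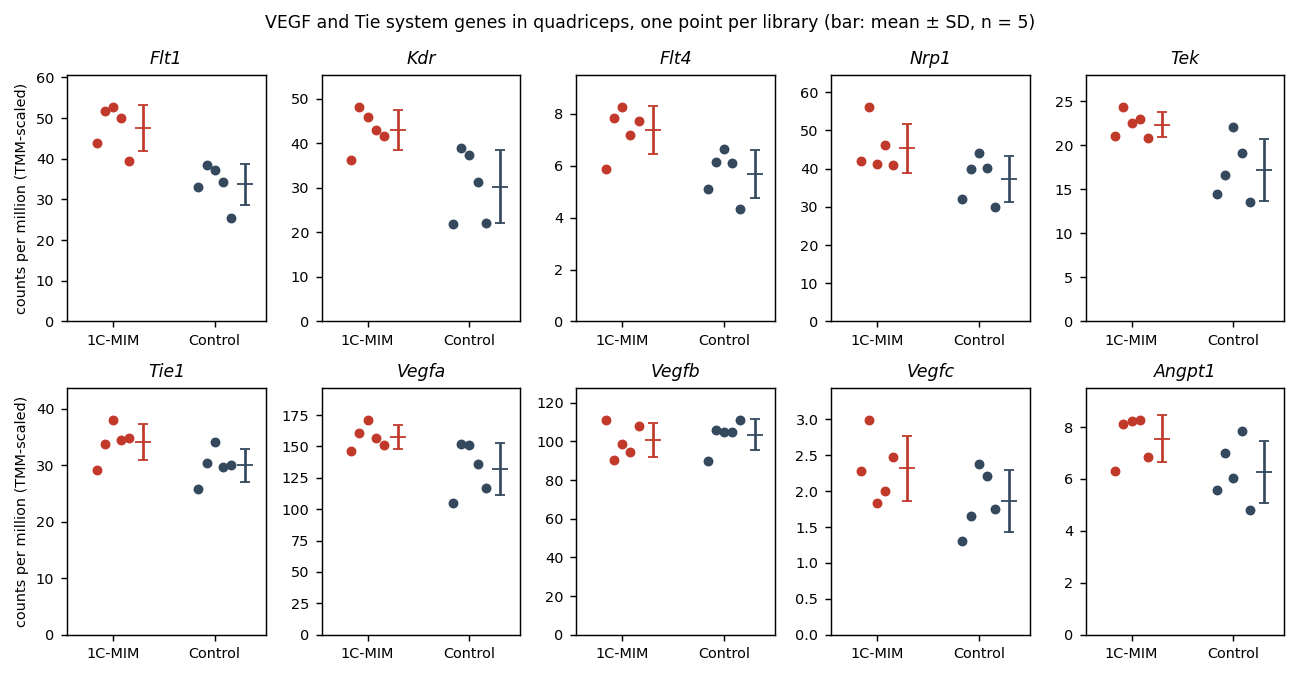
Level of each of the 10 genes in every library, in TMM-scaled CPM on linear axes starting at 0; points are libraries in replicate order, and bars are mean ± SD (n = 5 per group). The 5 1C-MIM libraries lie between 39.4 and 52.8 CPM for Flt1, all above the Control libraries, while the groups overlap for the other 9 genes.

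Among the VEGF receptors, Flt1 (NM_010228, a transcript of 6280 bases) rose in 1C-MIM. It stood at 43.9, 51.8, 52.8, 50.0 and 39.4 CPM in 1C-MIM 1 to 5, against 33.1, 38.5, 37.2, 34.2 and 25.4 CPM in Control 1 to 5. The lowest 1C-MIM library, 1C-MIM 5, lay just above the highest Control library, Control 2, so the groups did not overlap, and Control 5 was the lowest of all. Such a separation towards higher values was found in 6.6% of all tested genes, and towards lower values in 7.98%. The means were 47.6 ± 5.75 CPM in 1C-MIM and 33.7 ± 5.10 CPM in Control (SD, n = 5 each). The log2 fold change was 0.50 ± 0.11 (SE; 95% interval 0.26 to 0.73), a 1.41-fold difference with an adjusted p of 0.00859 in edgeR's test. Flt1 was called with each library left out in turn, at adjusted p between 0.00604 and 0.0243.

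Kdr (NM_010612, 5451 bases), the principal signalling receptor of Vegfa, rose by a like amount but with a wider spread between Control animals. It stood at 36.3, 48.2, 46.0, 42.9 and 41.7 CPM in 1C-MIM 1 to 5, against 21.8, 38.9, 37.3, 31.3 and 22.1 CPM in Control 1 to 5. Control 1 and Control 5 were far below the other 3 Control libraries, and 1C-MIM 1 fell within the Control range while the other 4 lay above it. The means were 43.0 ± 4.52 CPM in 1C-MIM and 30.3 ± 8.13 CPM in Control (SD, n = 5 each). The log2 fold change was 0.51 ± 0.16 (SE; 95% interval 0.16 to 0.85; adjusted p = 0.0419 by edgeR). Kdr was no longer called when any of Control 1, Control 4, Control 5 and 1C-MIM 2, 3, 4 or 5 was left out (adjusted p 0.0584 to 0.0936), with log2 fold changes of 0.41 to 0.61 over all 10 such fits. With Control 1 and Control 5 both left out, it was 0.26 (adjusted p = 0.0835). These were the lowest Control libraries for Kdr, so leaving them out narrows its difference by construction.

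Flt4 (NM_008029, 5839 bases), the Vegfc receptor, was expressed at a lower level. It stood at 5.87, 7.83, 8.27, 7.17 and 7.74 CPM in 1C-MIM 1 to 5, against 5.10, 6.13, 6.64, 6.12 and 4.34 CPM in Control 1 to 5. 1C-MIM 1 lay within the Control range, and the other 4 lay above it. Flt4 averaged 7.38 ± 0.927 CPM in 1C-MIM and 5.67 ± 0.928 CPM in Control (SD, n = 5 each). It rose by 0.38 ± 0.13 on the log2 scale (SE; 95% interval 0.11 to 0.65; edgeR adjusted p = 0.0464). This call lay near the threshold and was lost without Control 1, Control 4, Control 5 or any of 1C-MIM 2 to 5 (adjusted p 0.0638 to 0.104), at log2 fold changes of 0.30 to 0.45 over the 10 fits.

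Nrp1 (NM_008737, 5920 bases), which is also a semaphorin receptor in nerves and other cells, stood at 42.0, 56.2, 41.1, 46.2 and 41.0 CPM in 1C-MIM 1 to 5. The Control libraries had 32.1, 39.9, 44.2, 40.1 and 30.0 CPM. 1C-MIM 2 was the highest library, and Control 3 lay above 3 of the 1C-MIM libraries, so the groups overlapped. The means of 45.3 ± 6.46 CPM in 1C-MIM and 37.2 ± 5.97 CPM in Control (SD, n = 5 each) gave a log2 fold change of 0.28 ± 0.12 (SE; 95% interval 0.03 to 0.53) that did not pass the test (edgeR adjusted p = 0.0947).

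In the Tie system, Tek (NM_001290549, 4699 bases), the angiopoietin receptor, rose in 1C-MIM. It stood at 21.1, 24.4, 22.6, 23.0 and 20.8 CPM in 1C-MIM 1 to 5, against 14.5, 16.7, 22.1, 19.2 and 13.6 CPM in Control 1 to 5. The 1C-MIM libraries lay close together, and Control 3 alone reached into their range. Tek averaged 22.4 ± 1.49 CPM in 1C-MIM and 17.2 ± 3.49 CPM in Control (SD, n = 5 each), a log2 fold change of 0.38 ± 0.12 (SE; 95% interval 0.13 to 0.63; edgeR adjusted p = 0.0337). The call was lost without Control 1, Control 2, Control 5 or any of 1C-MIM 2, 3 and 4 (adjusted p 0.056 to 0.0769), at log2 fold changes of 0.31 to 0.48 over the 10 fits. With Control 1 and Control 5 both left out, Tek was at 0.21 (edgeR adjusted p = 0.137) and Flt4 at 0.23 (adjusted p = 0.201). Flt1 was still called in that fit, at 0.38 (adjusted p = 0.0222). Control 1 and Control 5 were the lowest Control libraries for Tek, Flt4 and Flt1 too, so leaving them out narrows these differences by construction.

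Tie1 (NM_011587, 3879 bases) differed less. It stood at 29.2, 33.8, 38.0, 34.5 and 34.8 CPM in 1C-MIM 1 to 5, against 25.8, 30.4, 34.1, 29.7 and 30.0 CPM in Control 1 to 5, and the groups overlapped. Its log2 fold change of 0.18 ± 0.08 (SE; 95% interval 0.01 to 0.36) did not pass the test (edgeR adjusted p = 0.119), and among the fits without a library it passed only without 1C-MIM 1, the lowest of its group (adjusted p = 0.0405). Angpt1 (NM_001286062, 4313 bases), the activating ligand of Tek, stood at 6.32, 8.11, 8.24, 8.27 and 6.85 CPM in 1C-MIM 1 to 5, against 5.58, 7.01, 6.02, 7.85 and 4.81 CPM in Control 1 to 5. Control 4 was nearly as high as the highest 1C-MIM libraries. The log2 fold change of Angpt1 was 0.27 ± 0.13 (SE; 95% interval -0.01 to 0.55; edgeR adjusted p = 0.146).

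Of the VEGF ligands, Vegfa (NM_001025250, 3531 bases) stood at 146, 161, 171, 157 and 151 CPM in 1C-MIM 1 to 5, against 105, 152, 151, 136 and 117 CPM in Control 1 to 5. Control 1 and Control 5 were the lowest, as for Kdr, and Control 2 and Control 3 lay within the 1C-MIM range. The means were 157 ± 9.5 CPM in 1C-MIM and 132 ± 20.8 CPM in Control (SD, n = 5 each). The log2 fold change of 0.25 ± 0.10 (SE; 95% interval 0.04 to 0.45) missed the threshold (edgeR adjusted p = 0.0782), and among the fits without a library it passed only without Control 2 (adjusted p = 0.0398).

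Vegfb (NM_011697, 1282 bases), the ligand of Flt1 that muscle and heart express strongly, was the only one of the 10 genes with a negative difference. It stood at 111, 90.6, 98.8, 94.7 and 108 CPM in 1C-MIM 1 to 5, against 90.0, 106, 105, 105 and 111 CPM in Control 1 to 5, ranges that nearly coincide. The log2 fold change was -0.04 ± 0.07 (SE; 95% interval -0.20 to 0.11; edgeR adjusted p = 0.711). Vegfc (NM_009506, 1881 bases) had only 38 to 87 counts a library, at 2.28, 2.99, 1.83, 2.00 and 2.48 CPM in 1C-MIM 1 to 5 and 1.30, 1.66, 2.38, 2.21 and 1.75 CPM in Control 1 to 5. Its log2 fold change of 0.31 ± 0.18 (SE; 95% interval -0.08 to 0.70; edgeR adjusted p = 0.232) has the widest interval of the 10 and did not pass the test.

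The animal numbers in the deposited names fall into a lower range, with 3 animals in each group, and a higher range, with 2 in each group. Within the lower range the log2 differences of 1C-MIM minus Control were 0.45 for Flt1, 0.45 for Kdr, 0.29 for Flt4 and 0.37 for Tek. Within the higher range they were 0.59, 0.68, 0.52 and 0.44 for the same genes. All members other than Vegfb were higher in 1C-MIM within both ranges (9 of 10, beside 40.3% of all tested genes), while Vegfb had -0.01 in the lower and -0.09 in the higher. The ranges divide the same animals that gave the differences above, where 50.1% of all tested genes were positive. The count is therefore not a separate test of the members.

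The length of the transcripts moved with the result. Among the 1893 tested genes whose transcripts had 4500 to 6500 bases, the range of Kdr, Flt4, Tek and Flt1, the median log2 fold change was 0.15 and 19.5% were called higher. The trend with length alone placed 1C-MIM above Control by 0.17 at the length of Flt1, 0.13 at Kdr, 0.15 at Flt4 and 0.10 at Tek, and Control 5 had the lowest trend value at the length of Flt1. With each library's trend removed, Flt1 was still called at 0.33 ± 0.07 (SE; edgeR adjusted p = 0.00871). Kdr was then at 0.37 (adjusted p = 0.109), Flt4 at 0.23 (adjusted p = 0.154) and Tek at 0.27 (adjusted p = 0.0792). The members called higher were then 1 of 10, with 6.95% of all tested genes called higher and 9.31% lower. Vegfb, whose transcript is the shortest of the 10, turned to 0.11 (adjusted p = 0.143).

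**Figure D2:**
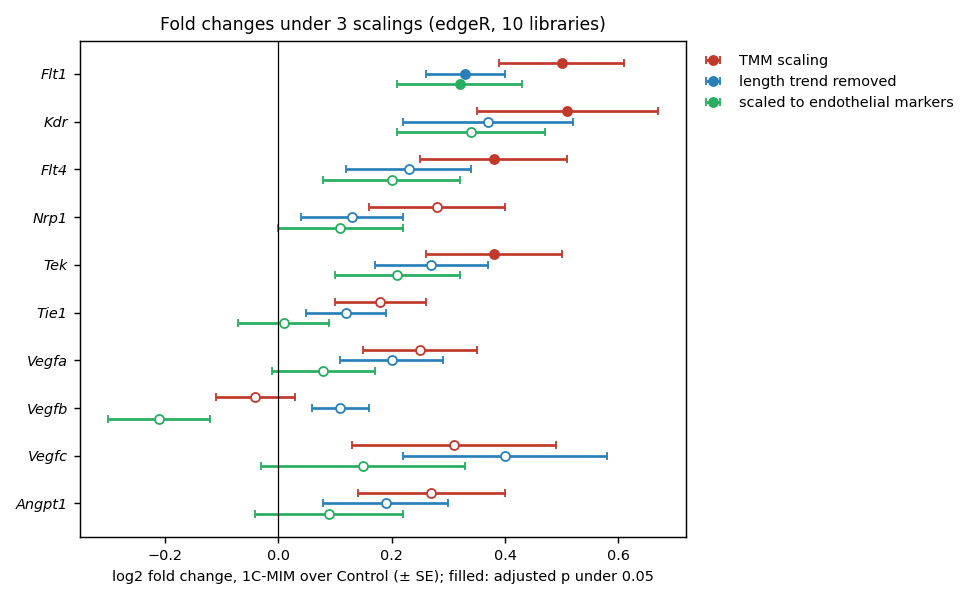
Log2 fold changes of 1C-MIM over Control for the 10 genes (points, ± SE) with TMM scaling, with each library's transcript-length trend removed, and with scaling to blood endothelial markers; filled points have an edgeR adjusted p under 0.05. Flt1 is filled in all 3 fits (0.50, 0.33 and 0.32), Kdr, Flt4 and Tek only with TMM scaling, and Vegfb changes sign.

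Markers of blood endothelium were detected in every library, and part of them also moved with the groups. The 15 markers summed to 459 to 527 CPM in 1C-MIM libraries and 390 to 463 CPM in Control libraries. Of them, 7 were called higher, 1 lower and 7 were not called. The log2 fold change was positive for 10 of the 15, with a median of 0.22. The endothelial transcription factor Erg rose by 0.53 ± 0.12 (SE; edgeR adjusted p = 0.00898), the junction gene Cdh5 by 0.37 ± 0.09 (SE; adjusted p = 0.0123, chosen after its values were seen), and the apelin receptor Aplnr fell by 0.40 on the log2 scale (adjusted p = 0.0307). Without Control 3, 4 or 5 or 1C-MIM 1, 3 or 4, Aplnr was not called, at adjusted p up to 0.0808. When the libraries were scaled to the geometric mean of these markers in place of TMM, Flt1 remained called at 0.32 ± 0.11 (SE; edgeR adjusted p = 0.0312). Kdr was at 0.34 (adjusted p = 0.061), Flt4 at 0.20 (adjusted p = 0.204), Tek at 0.21 (adjusted p = 0.145) and Tie1 at 0.01 (adjusted p = 0.937). Under that scaling the median of all tested genes moved to -0.17, with 1.71% of them called higher, 27.4% lower, and 1 of the 10 VEGF and Tie genes higher. With library totals as the only scaling, which moved the median to -0.07, Flt1 at 0.42 (edgeR adjusted p = 0.0227) was likewise the only 1 of the 10 called, where 4.37% of all tested genes were higher and 20.9% lower.

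Other cell types differed too, and their part in the receptor differences was not tested. The 10 pericyte and smooth muscle markers summed to 563 to 777 CPM in 1C-MIM and 462 to 603 CPM in Control, with 2 called higher and 0 lower. Rgs5, a pericyte gene, was 0.74 ± 0.20 higher on the log2 scale (SE; edgeR adjusted p = 0.0248), and Cspg4 0.39 ± 0.13 higher (SE; adjusted p = 0.0404). Rgs5 was not called without 1C-MIM 2, 3 or 4 (adjusted p up to 0.0637), nor Cspg4 without Control 1, 4 or 5 or 1C-MIM 2, 3 or 4 (adjusted p up to 0.096), and 0 of the 10 were called once the length trend was removed. Of the 10 macrophage markers, whose cells can express Flt1 and Nrp1, 9 were lower and 0 higher. They summed to 142 to 206 CPM in 1C-MIM and 253 to 497 CPM in Control, and Cd68 with -1.34 (edgeR adjusted p = 0.000132) and Lyz2 with -1.33 (adjusted p = 0.000234) had the smallest p. Of 5 lymphatic markers 3 could be tested. Pdpn, also made by stromal cells, had -0.64 (edgeR adjusted p = 0.0178, and 0.0528 without 1C-MIM 4), Mmrn1 had 0.62 (adjusted p = 0.114) and Lyve1 -0.06 (adjusted p = 0.798). Prox1 had too few reads and Ccl21a was at 0 in every library. Their sum was 10.6 to 16.3 CPM in 1C-MIM and 12.5 to 17.5 CPM in Control, a low level beside the 15 blood endothelial markers.

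The remaining marker lists give the rest of the tissue. The 10 myofibre markers summed to 212000 to 244000 CPM in 1C-MIM and 188000 to 210000 CPM in Control, with 4 called higher (Atp2a1, Myh1, Myh4 and Ttn) and 0 lower. With the length trend removed, the log2 fold change of Ttn, 0.84 with TMM alone, was -0.09 (edgeR adjusted p = 0.434) and Myh4 was not called (adjusted p = 0.117), and leaving out 1C-MIM 2, 1C-MIM 3, Control 3 or Control 5 also ended the Ttn call (adjusted p up to 0.0697). The 9 markers of fibro-adipogenic progenitors, stromal cells that lie between the fibres, summed to 1880 to 2750 CPM in 1C-MIM and 2480 to 3230 CPM in Control, with 0 higher and 6 lower, of which Col3a1 with -1.55 (edgeR adjusted p = 0.000272) and Lum with -0.46 (adjusted p = 0.00518) had the smallest p. The 5 adipocyte markers summed to 225 to 373 CPM in 1C-MIM and 345 to 407 CPM in Control, with 1 higher (Lep) and 1 lower (Cfd). Of 9 Schwann cell and neural markers 7 could be tested, 1 was higher (Mbp) and 0 lower, and the sums were 94.2 to 112 CPM in 1C-MIM and 85.0 to 102 CPM in Control.

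Levels between genes were compared per transcript length, as CPM per kilobase. In 1C-MIM libraries, Vegfb led at 78.5 ± 6.81 and Vegfa followed at 44.4 ± 2.69 (SD, n = 5), and neither range overlapped its neighbours. Tie1 at 8.78 ± 0.812, Kdr at 7.89 ± 0.830, Nrp1 at 7.65 ± 1.09 and Flt1 at 7.58 ± 0.916 had overlapping ranges. Tek was lower at 4.77 ± 0.317, then Angpt1 at 1.75 ± 0.211, with Flt4 at 1.26 ± 0.159 and Vegfc at 1.23 ± 0.240 overlapping at the bottom.

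In Control libraries, Vegfb at 80.8 ± 6.28 and Vegfa at 37.5 ± 5.88 CPM per kilobase again stood apart from the rest (SD, n = 5). Tie1 at 7.74 ± 0.764, Nrp1 at 6.29 ± 1.01, Kdr at 5.55 ± 1.49, Flt1 at 5.36 ± 0.813 and Tek at 3.67 ± 0.743 formed a chain in which each range overlapped the next. Angpt1 at 1.45 ± 0.277, Vegfc at 0.989 ± 0.231 and Flt4 at 0.971 ± 0.159 overlapped at the low end. In both groups Vegfb and Vegfa lay above every receptor, and the ranges of Kdr and Flt1 overlapped.

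**Figure D3:**
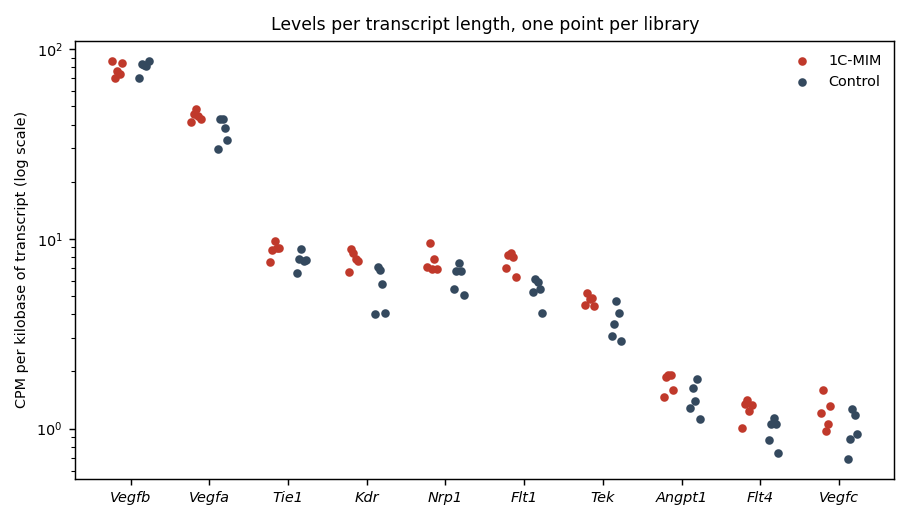
Level of the 10 genes as TMM-scaled CPM per kilobase of transcript on a log axis, 1 point per library, 1C-MIM left of Control for each gene. Vegfb (78.5 in 1C-MIM and 80.8 in Control) and Vegfa (44.4 in 1C-MIM and 37.5 in Control) lie above all receptors, and Flt4 and Vegfc lie at about 1.

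Ratios within a library cancel the scaling between libraries, though not the length trend. For 4 pairs, the ratio of counts per kilobase was compared by a two-sided exact permutation test over all assignments of libraries to groups, adjusted over the 4 ratios. Flt1 over Kdr ranged from 0.819 to 1.05 in 1C-MIM and 0.860 to 1.32 in Control, where Control 1 was the highest. The difference in log2 ratio was -0.04 (exact p = 0.794, adjusted p = 0.794). Tie1 over Tek ranged from 1.67 to 2.03 in 1C-MIM and 1.87 to 2.67 in Control, a difference of -0.22 (exact p = 0.0873, adjusted p = 0.116).

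Nrp1 over Kdr ranged from 0.823 to 1.08 in 1C-MIM and 0.945 to 1.36 in Control, a log2 difference of -0.26 (exact p = 0.0635, adjusted p = 0.116). Vegfa over Vegfb ranged from 0.478 to 0.644 in 1C-MIM and 0.381 to 0.520 in Control, a log2 difference of 0.30 (exact p = 0.0635, adjusted p = 0.116). With the length trend removed this last difference was 0.10 (exact p = 0.206). None of the 4 passed the threshold, and the groups overlapped in each. The smallest p the exact test could give was 0.00794.

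**Figure D4:**
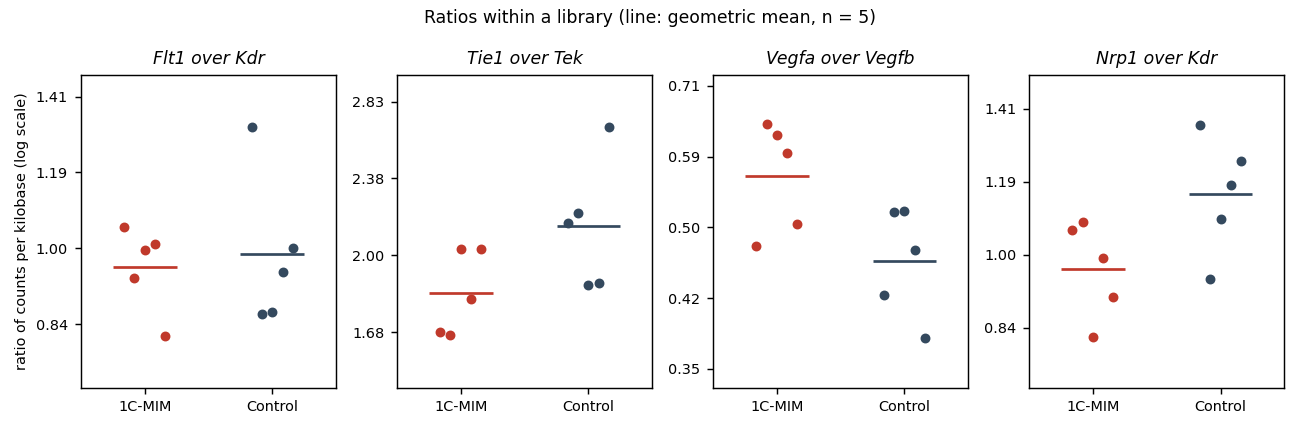
Ratio of counts per kilobase between 4 pairs of genes in each library, on log axes; the line is the geometric mean (n = 5 per group). The groups overlap in all 4 panels, with Vegfa over Vegfb at 0.478 to 0.644 in 1C-MIM and 0.381 to 0.520 in Control.

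Several transcripts are listed for 4 of the genes, and a read that fits several is counted for each. Vegfa had 9 transcript entries, and the lowest held 79.7% of the counts of the highest. Alternative splicing of Vegfa is known to give forms that differ in binding to heparan sulphate, so the steps between nested entries were read as counts that fit the longer entry alone. The step between the entries NM_001025250 and NM_009505, which differ by 72 bases (24 codons), held 72 reads in 1C-MIM and 52 in Control. That is 0.310 ± 0.0461% of Vegfa counts in 1C-MIM and 0.260 ± 0.0785% in Control (SD, n = 5 each). Here and below, such percentages are not shares of splice forms, since they are not scaled for length. This step covers 72 of 3531 bases, and a read that fits both entries does not count in it.

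The step between NM_009505 and NM_001025257, 132 bases or 44 codons, held 338 reads in 1C-MIM and 270 in Control. These made up 1.45 ± 0.321% of Vegfa counts in 1C-MIM and 1.31 ± 0.187% in Control (SD, n = 5 each). The step of 690 bases between NM_001025250 and NM_001110266 held 19.0 ± 1.31% in 1C-MIM and 17.9 ± 2.95% in Control (SD, n = 5 each), with Control 5 the lowest at 12.9%. The groups overlapped in all 3 steps. The 3 entries of Tek had 5973 to 5979 counts over all libraries, the 2 of Angpt1 had 2083 each, and the 2 of Vegfb had 30802 and 30819, so these entries could not be told apart by their counts.

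Across libraries, after each group's mean was subtracted, Kdr and Vegfa varied together, with a Pearson r of 0.96 and a Spearman rho of 0.96 over the 10 libraries. Without Control 1 and Control 5, both low in each gene, the values were 0.95 and 0.93 over 8 libraries. Kdr had r of 0.86 with Flt4, 0.81 with Nrp1, 0.80 with Tek, 0.75 with Flt1, 0.71 with Angpt1, 0.67 with Tie1, 0.48 with Vegfc and 0.01 with Vegfb. Many genes outside the 10 had an r with Kdr as high. Among 11381 genes, Vegfa ranked 17, Flt4 236, Nrp1 412, Tek 460, Flt1 685, Angpt1 884 and Tie1 1069. These values are descriptions without a test, since the points share library depth, composition and the length trend. Of 11381 genes, those most like Kdr were Setd1b, Dennd4b and Pfas at 0.99 and Zbtb7a and Llgl1 at 0.98. Those most like Vegfa were Mllt6, Xdh and 9930014A18Rik at 0.97 and Pfas and Ptpn1 at 0.96.

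Counts called in the other lists, cell markers included, stand beside 9.78% of all tested genes called higher and 11.8% lower. They are descriptions only. Among 7 other VEGF and angiopoietin ligands and processing factors, 1 was higher and 0 lower. This was Angpt2, the ligand that endothelial cells release and that can oppose Angpt1 at Tek, at 3.61 ± 0.471 CPM in 1C-MIM and 2.47 ± 0.345 CPM in Control (SD, n = 5 each). The groups did not overlap, and Angpt2 rose by 0.55 ± 0.13 on the log2 scale (SE; edgeR adjusted p = 0.012). Among 10 other co-receptors, semaphorins and phosphatases, 1 was higher and 0 lower. This was Ptprb, the endothelial phosphatase that acts on Tek and Kdr, at 64.5 ± 12.9 CPM in 1C-MIM and 40.6 ± 6.98 CPM in Control (SD, n = 5 each), without overlap. Ptprb rose by 0.67 ± 0.15 (SE; edgeR adjusted p = 0.00915), and by 0.35 (adjusted p = 0.00275) once the length trend was removed from its 11912-base transcript. Scaled to the endothelial markers, Angpt2 was at 0.38 (edgeR adjusted p = 0.0583) and Ptprb, itself a marker on that list, at 0.49 (adjusted p = 0.0234).

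Of 16 genes of signalling downstream of the receptors, 15 could be tested, and 3 were higher and 3 lower, with a median log2 fold change of 0.11. Gab1, a docking protein used by Kdr, rose by 0.38 ± 0.06 (SE; edgeR adjusted p = 0.00181), to 28.0 ± 1.40 CPM in 1C-MIM against 21.6 ± 1.30 CPM in Control. The adaptor Shc2 rose by 0.45 ± 0.09 (SE; adjusted p = 0.00391). Dok2, an adaptor of Tek that leukocytes also express, fell to 1.77 ± 0.294 CPM in 1C-MIM against 3.52 ± 0.501 CPM in Control, a log2 fold change of -0.99 ± 0.14 (SE; adjusted p = 0.000931). The kinase Prkcd, also found in macrophages, had -0.65 ± 0.10 (SE; adjusted p = 0.00174); the macrophage marker sums given earlier moved with both genes, and their part was not tested. Named after their values were seen, the focal adhesion protein Pxn had 0.19 (adjusted p = 0.0492) and the adaptor Shb -0.39 (adjusted p = 0.0337), and Pxn was called in 2 and Shb in 3 of the 10 fits without a library. Scaled to the endothelial markers, Gab1 was at 0.20 (adjusted p = 0.0969), and the endothelial nitric oxide synthase Nos3 had 0.12 (adjusted p = 0.467) with TMM.

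Of 10 genes that VEGF or Foxo1 is known to regulate in endothelium, 4 were higher and 2 lower, with a median of 0.24. Igfbp3, a binding protein of insulin-like growth factors, rose to 21.0 ± 1.91 CPM in 1C-MIM against 12.9 ± 1.29 CPM in Control, by 0.70 ± 0.08 (SE; edgeR adjusted p = 0.000271). The Notch ligand Dll4 rose by 0.46 ± 0.12 (SE; adjusted p = 0.0188), and was at 0.0516 without 1C-MIM 3. The flow-responsive factor Klf2 fell to 10.9 ± 0.620 CPM in 1C-MIM against 17.1 ± 4.41 CPM in Control, by 0.65 on the log2 scale (-0.65 ± 0.15 SE; adjusted p = 0.00949). Dusp5, a phosphatase of ERK with under 1 CPM, had -1.32 ± 0.35 (SE; adjusted p = 0.0194), and 0.0575 without 1C-MIM 4. Named after their values were seen, the tip cell genes Apln with 0.63 (adjusted p = 0.0292) and Esm1 with 0.83 (adjusted p = 0.0399) were the other 2 higher, called in 5 and 3 of the 10 fits without a library. Both had low levels, with means of 1.06 CPM in 1C-MIM and 0.686 CPM in Control for Apln. Esm1 had 0.735 CPM in 1C-MIM and 0.408 CPM in Control.

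Of 12 genes of oxygen sensing and Vegfa induction, 3 were higher and 0 lower, with a median of 0.15. Epas1, the hypoxia factor abundant in endothelium, rose to 159 ± 12.4 CPM in 1C-MIM against 116 ± 15.8 CPM in Control, by 0.45 ± 0.09 (SE; edgeR adjusted p = 0.00496), without overlap. Its partner Arnt rose by 0.28 ± 0.08 (SE; adjusted p = 0.0225), and lost the call when Control 4, 1C-MIM 2 or 1C-MIM 4 was left out (adjusted p up to 0.0563). The oxygen-dependent hydroxylase Hif1an, named after its values were seen, had 0.21 (adjusted p = 0.0303), was not called without Control 3 or 1C-MIM 3 or 4 (adjusted p up to 0.0676), and was at 0.05 (adjusted p = 0.492) once the length trend was removed. Of 12 hypoxia target genes, 2 were higher and 2 lower, with a median of 0.07. Ndrg1 rose by 0.38 ± 0.07 (SE; edgeR adjusted p = 0.00276), and the kinase Pdk1, which restrains pyruvate oxidation, had 0.22 (adjusted p = 0.0192). The glycolytic genes Pgk1 and Ldha had -0.23 (edgeR adjusted p = 0.0215) and -0.20 (adjusted p = 0.0355). With the length trend removed Pdk1, Pgk1 and Ldha were not called, at adjusted p of 0.184, 0.0696 and 0.11. Single libraries decided these calls too: Pdk1 was lost without 1C-MIM 4, Pgk1 when Control 5, 1C-MIM 3 or 1C-MIM 4 was left out, and Ldha was called in 2 of the 10 fits. Scaled to the endothelial markers, Igfbp3 was at 0.53 (edgeR adjusted p = 0.00119), Epas1 at 0.28 (adjusted p = 0.0291) and Ndrg1 at 0.21 (adjusted p = 0.0449), while Arnt at 0.11 (adjusted p = 0.408) and Pdk1 at 0.04 (adjusted p = 0.759) were not called.

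**Figure D5:**
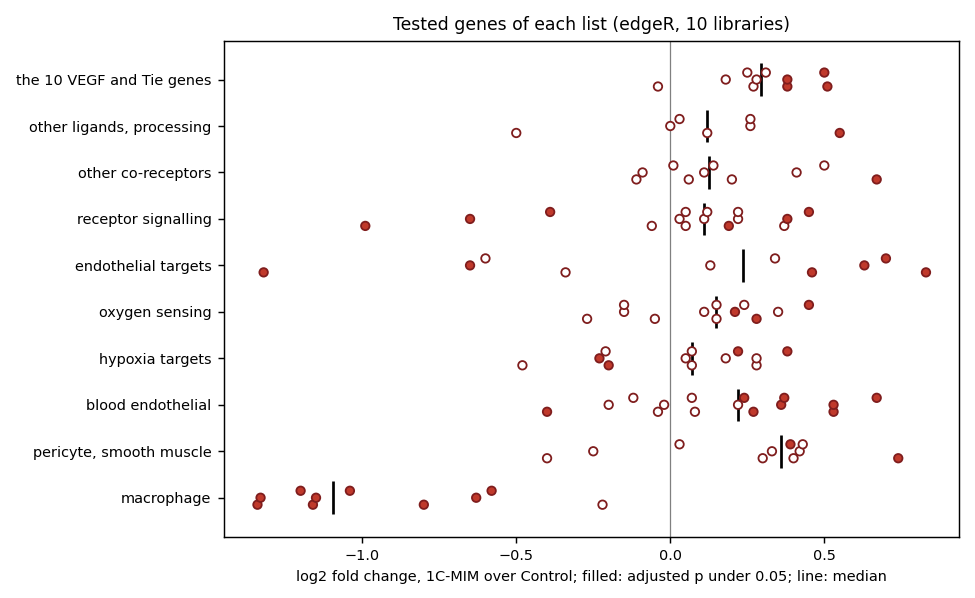
Log2 fold changes of 1C-MIM over Control for the tested genes of each list, 1 point per gene; filled points have an edgeR adjusted p under 0.05 and the vertical line is the list's median. The 10 VEGF and Tie genes have a median of 0.30 with 4 filled points to the right of 0, while the macrophage markers have a median of -1.09.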

How the data were processed

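The data are RNA-seq tables of 10 quadriceps libraries, 5 1C-MIM and 5 Control, grouped by title and treatment label. Per the labels, the company Active Motif prepared the RNA and libraries. The submitters' processing notes name build GRCm39 and, without roles or order, featureCounts, Subread 2.0.1, STAR, Trim Galore 0.6.7, SAMtools 1.15.1, Salmon 1.5.2, StringTie 2.2.1, Picard 2.27.4, DESeq2 1.28.0 and bedtools 2.30.0. No source used here says whether the counting used strand.

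The deposited count values are whole, unnormalized numbers for 33984 RefSeq transcripts, per the file headers, and a read shared by isoforms counts for each of them. The deposited FPKM values, scaled by the authors per kilobase and per library total, served only to recover transcript lengths. TPM values, which the authors scaled for length, were not used. Each symbol was represented by its transcript with the largest total count, giving 24063 symbols, and 45.3 to 47.4% of transcript counts were left out. Totals of 28521254 to 31771296 counts a library set the counting precision.

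Genes were filtered with filterByExpr, scaled by TMM and tested with the robust quasi-likelihood F test of edgeR 4.0.16 in R 4.3.3, with Benjamini-Hochberg adjustment over 13880 genes and a threshold of 0.05. The SE is the log2 fold change over the root of F. Log2 values used a prior count of 2. Length trends were natural splines with 3 inner knots, fitted per library and entered as offsets. The code was tested on simulated counts.

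Alternatives were DESeq2 1.42.0, limma-voom (limma 3.58.1), edgeR without robust prior, DESeq2 size factors, upper-quartile factors, library totals, endothelial marker scaling, no filter, 1 CPM in 5 libraries, counts summed over transcripts, blocks on replicate number or animal number series, removal of the length trend, each library left out, Control 1 and Control 5 left out together, a fold change of at least 1.5, and a threshold of 0.1 on adjusted p. Removal of the length trend together with the replicate block was chosen after seeing the data. For the ratios, a prior count of 0.5 and sign flips within same-numbered pairs were tried. In the other lists, the called genes with the 2 smallest p in each direction were named. For likeness, the 5 genes with a mean log2 CPM of at least 1 and the highest r were named. The 10 genes and the 14 other lists were chosen with earlier results of these data known.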

Additional observations from a re-analysis of the deposited data

How the results depend on the processing

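Flt1 kept its direction and its call in all 25 alternative fits, and its 1.41-fold difference is below the fold change of 1.5 tried as a further threshold. Without 1 library at a time, 739 to 1558 genes were called higher and 941 to 1885 lower, and 1 to 5 of the 10 VEGF and Tie genes higher and 0 lower. With library totals as scaling, 606 genes were higher, 2896 lower and 1 of the 10 higher. With endothelial marker scaling these were 238, 3800 and 1. Without Control 1 and Control 5 together they were 832, 976 and 1. With the length trend removed, 1 of the 10 was higher. At an adjusted p under 0.1, 2114 genes were higher and 2363 lower, and 6 of the 10 were higher and 0 lower. With a fold change of at least 1.5 added, 193 genes were higher, 537 lower and 0 of the 10. Vegfb turned positive, at 0.11, with the length trend removed, alone and together with the replicate block; Flt1 over Kdr ranged from -0.09 to 0.06 without 1 library at a time. Near the threshold, Kdr was lost without a filter (edgeR adjusted p = 0.0699), and Flt4 with upper-quartile factors (0.0512), summed transcripts (0.0533) and the animal number series as a block (0.0544). Same-numbered libraries are not labelled as pairs. The correlations of their deviations were -0.08, 0.12, 0.06, 0.12 and 0.39, and only number 5 correlated best with its own number. With replicate number as a block, 8 of the 10 were called higher, beside 13.9% of all tested genes: the 4 receptors and also Vegfa (edgeR adjusted p = 0.0145), Tie1 (0.0225), Nrp1 (0.0284) and Angpt1 (0.0475); with the length trend also removed, 4 were, beside 9.2% (Flt1, Kdr, Tek and Vegfa). The cause of each shift was not tested. Vegfc had the fewest counts of the 10, with 38 to 87 a library, and how much of its error comes from counting was not tested.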
